A study of Mus musculus with 6 samples.

Results

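The genes described here are 38 markers of blood-derived cells, covering macrophages, osteoclasts and other hematopoietic cells, that can be carried into cultures of calvarial bone cells. They were taken by symbol from a table of 17001 gene rows, and all 38 were found. RNA was sequenced from cultured preosteoblasts, the precursors of bone-forming osteoblasts, of calvaria from 3-day-old mice. The control group was 3 libraries of NELL2 fx/fx cells, in which both copies of the gene carry loxP sites. The cKO group was 3 libraries of Col1-cre; NELL2 fx/fx cells, which carry the same floxed alleles plus Cre recombinase. The Cre is driven by a fragment of the Col1a1 promoter, which is active in cells of the osteoblast lineage. Whether a library came from 1 pup or a pool is not given in the sources used here, so p-values measure only the spread between these libraries, which may be technical.

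Calvarial digests release more than bone-forming cells, because bone holds tissue macrophages and marrow. Macrophages and osteoclasts share a myeloid origin: colony-stimulating factor 1 acting on the receptor CSF1R sustains their precursors, and RANKL acting on RANK drives fusion into osteoclasts that resorb bone with tartrate-resistant acid phosphatase and cathepsin K. The transcription factor PU.1, encoded by Spi1, sets up the myeloid program by binding purine-rich DNA that holds the letters GAGGAA.

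Levels are in FPKM, a read level corrected for transcript length and for the size of the library, as deposited by the authors with 2 decimals, and are listed in the order of replicates 1, 2 and 3 of a group. The number of reads is not carried by FPKM, so depth is unknown and no counting error could be given. Summed over all rows, a library held 573307 to 606428 FPKM, no pair of libraries held identical values, and the correlation between libraries over the tested rows ranged from 0.982 to 0.994. Preosteoblast markers were present in all libraries, with Col1a1, a chain of type I collagen, at 8052.61 to 8578.05 and Runx2, the master regulator of the lineage, at 10.98 to 14.71. Of the 12 genes on that list, 5 were lower and 1 higher in cKO at an unadjusted p-value under 0.05 in limma, and 0 passed after adjustment. Over all 11590 rows tested, 7.76% were lower and 5.37% higher at that unadjusted level. Alpl, the bone alkaline phosphatase, was 25.15 to 36.44 in the controls and 22.03 to 23.09 in cKO, and Ibsp, a protein of mineralizing matrix, was 48.79 to 123.86 and 26.17 to 34.64. Sp7, a transcription factor of osteoblasts, and Bglap, which encodes osteocalcin, likewise had each cKO library below each control. Postn, the 1 gene counted as higher, went the other way, at 599.74 to 715.92 in the controls and 742.46 to 1055.17 in cKO. Nell2 itself was 3.17, 2.59 and 1.88 in the controls and 5.64, 1.61 and 5.74 in the cKO libraries. Its FPKM over the whole gene was thus not lower in 2 of the 3 cKO libraries, and groups are named by their labels. The paper reports that qRT-PCR and western blotting showed the deletion in calvarial preosteoblasts. Whether those were the cultures sequenced is not stated.

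For the members whose pattern over libraries is described next, the sequence upstream of the gene start is shown for a set of neighbouring genes and for the macrophage gene with the highest level. C1qb and C1qc lie 3617 bases apart on chromosome 4, and Ctsk and Ctss lie 17424 bases apart on chromosome 3. Sequences are 5′ to 3′ in the direction of the gene, from RefSeq on GRCm38.p6, up to 250 bases before the start, with bases left out where GENCODE release M21 places an exon of the gene itself, so the stretches of C1qc and Lyz2 are shorter. Capitals mark GAGGAA or its reverse complement TTCCTC.
C1qb (chr4:136886201-136886450, minus strand): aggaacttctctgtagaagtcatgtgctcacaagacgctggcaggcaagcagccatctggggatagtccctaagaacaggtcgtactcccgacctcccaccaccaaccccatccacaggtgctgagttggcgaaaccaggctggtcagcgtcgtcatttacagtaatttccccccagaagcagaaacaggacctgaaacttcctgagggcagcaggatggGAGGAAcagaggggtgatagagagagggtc
C1qc (chr4:136893066-136893164, minus strand): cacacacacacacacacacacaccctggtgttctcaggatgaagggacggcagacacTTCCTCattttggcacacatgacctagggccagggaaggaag
Ctss (chr3:95526536-95526785, plus strand): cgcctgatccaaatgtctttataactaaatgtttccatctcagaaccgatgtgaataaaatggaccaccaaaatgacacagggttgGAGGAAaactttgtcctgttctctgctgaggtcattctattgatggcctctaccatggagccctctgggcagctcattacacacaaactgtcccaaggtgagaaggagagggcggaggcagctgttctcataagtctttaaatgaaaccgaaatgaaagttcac
Ctsk (chr3:95498960-95499209, plus strand): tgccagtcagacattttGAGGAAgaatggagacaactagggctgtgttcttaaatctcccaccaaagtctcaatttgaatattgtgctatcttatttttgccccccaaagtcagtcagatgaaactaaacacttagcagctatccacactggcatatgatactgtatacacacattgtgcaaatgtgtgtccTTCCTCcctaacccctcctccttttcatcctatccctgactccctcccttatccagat
Lyz2 (chr10:117282322-117282522, minus strand): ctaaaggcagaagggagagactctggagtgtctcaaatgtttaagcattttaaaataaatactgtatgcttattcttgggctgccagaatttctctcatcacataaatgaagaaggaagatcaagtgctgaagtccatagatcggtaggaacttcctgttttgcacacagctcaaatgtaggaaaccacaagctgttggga

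The set of RefSeq upstream sequences used here held an entry for 26 of the 38 markers. On either strand, GAGGAA was found within 250 bases upstream in 14 of these 26 genes, and in 25.9% of the 27025 genes of the same set. Those without an entry were Adgre1, C1qa, Cd14, Cd52, Cd74, Clec4n, Csf1r, H2-Ab1, Lst1, Msr1, Spi1 and Tyrobp. Ctsk held the letters at 2 places and Lyz2 at 0. A match is only a match of letters, and no binding was measured in these cells.

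Most blood-cell markers were low, and a few genes held most of the signal. The mean over the 6 libraries was under 1 FPKM for 15 markers, between 1 and 5 for 18 and at least 5 for 5, namely Ctsk, Lyz2, Acp5, Ctss and Tyrobp. Without the bone-resorption enzymes Ctsk and Acp5, the other 36 markers together took 0.0110% to 0.0264% of the summed FPKM in each library. In bulk RNA, fewer cells of a type and less RNA per cell cannot be told apart.

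**Figure D1:**
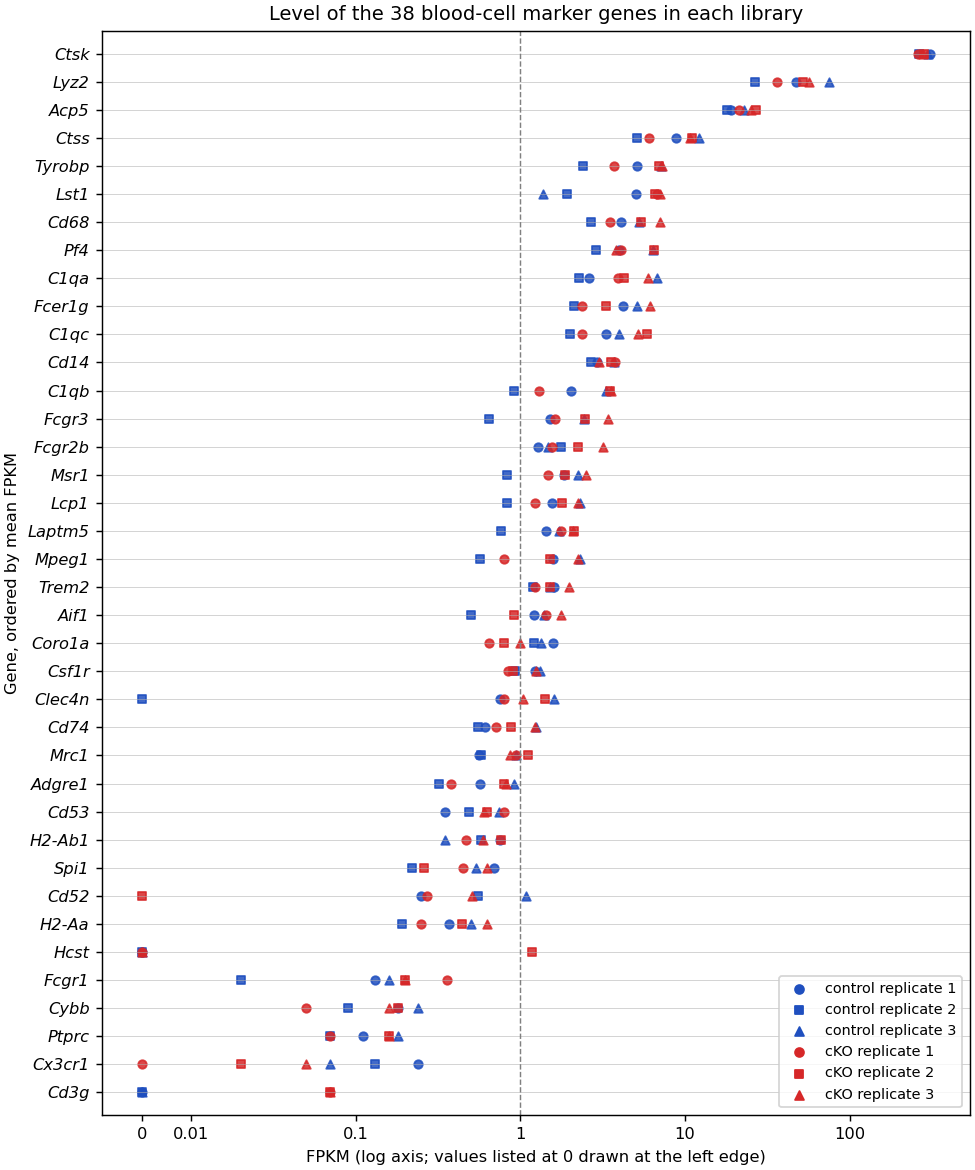
FPKM of each of the 38 markers (vertical axis, ordered by mean) in the 6 libraries on a log axis, with control libraries in blue, cKO libraries in red and replicates 1, 2 and 3 as circles, squares and triangles; values listed at 0 sit at the left edge and the dashed line marks 1 FPKM. Ctsk lies far to the right of the rest, and control replicate 2 (blue square) is the leftmost point for 24 markers.

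Of the genes common to all leukocytes, Ptprc, which encodes the surface phosphatase CD45, was 0.11, 0.07 and 0.18 FPKM in the controls and 0.07, 0.16 and 0.16 in the cKO libraries. The groups overlapped, and each library was under 0.2. Lcp1, an actin-bundling protein of leukocytes, ranged from 0.83 to 2.29 FPKM, Cd53, a tetraspanin, from 0.35 to 0.80, and Cd52, a small glycoprotein of the leukocyte surface, from 0 to 1.08. Laptm5, a lysosomal membrane protein of blood cells, and Coro1a, an actin-binding protein of leukocytes, are given with the group comparison.

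Spi1 was 0.69, 0.22 and 0.54 FPKM in the controls and 0.45, 0.26 and 0.63 in the cKO libraries. Of its myeloid target genes, Csf1r was 1.22, 0.93 and 1.31 FPKM in the controls and 0.84, 0.90 and 1.24 in the cKO libraries. Both groups spanned much the same range for these genes, and Csf1r had a log2 fold change of -0.11 with a standard error of 0.10 (adjusted p = 0.652). Exons of Csf1r overlap those of Hmgxb3 on the opposite strand, and Hmgxb3 had 8.20 to 9.69 FPKM. Whether reads of Hmgxb3 entered the Csf1r value was not tested. Adgre1, which encodes the macrophage antigen F4/80, was 0.57, 0.32 and 0.91 FPKM in the controls and 0.38, 0.79 and 0.82 in the cKO libraries.

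The other macrophage receptors were of the same order. Cd14, a co-receptor for bacterial lipopolysaccharide, varied little, from 2.69 to 3.78 FPKM. Msr1, a scavenger receptor, ranged from 0.83 to 2.51, Trem2, a lipid-sensing receptor, from 1.19 to 1.96, and Mrc1, the mannose receptor, from 0.56 to 1.11. Clec4n, which encodes the lectin Dectin-2, was listed at 0 in control replicate 2 and between 0.75 and 1.59 in the other libraries. Cx3cr1, the fractalkine receptor of monocytes and microglia, did not exceed 0.24.

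Tyrobp, which encodes the signaling adaptor DAP12, was 5.08, 2.41 and 7.12 FPKM in the controls and 3.70, 6.98 and 7.21 in the cKO libraries. The lowest and the second highest library were both controls. Fcer1g, the common gamma chain of Fc receptors, ranged from 2.12 FPKM in control replicate 2 to 6.13 in cKO replicate 3. The activating receptor Fcgr3 ranged from 0.64 to 3.42 and the inhibitory receptor Fcgr2b from 1.28 to 3.19, and reads of these similar genes may have been divided between them. Hcst, the adaptor DAP10, lies 127 bases from Tyrobp and was listed at 0 in 5 libraries and at 1.17 in cKO replicate 2.

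The 3 chains of C1q, the complement component that macrophages secrete, moved together over the libraries. C1qa was 2.62, 2.27 and 6.76 FPKM in the controls and 3.91, 4.27 and 5.93 in the cKO libraries. C1qb was 2.04, 0.91 and 3.32 in the controls and 1.29, 3.50 and 3.57 in the cKO libraries. C1qc was 3.32, 1.99 and 3.96 in the controls and 2.37, 5.86 and 5.17 in the cKO libraries. For each chain, control replicate 2 was the lowest library, and both groups held low and high libraries.

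Lyz2, the lysozyme of macrophages and neutrophils, was the highest marker after Ctsk. Its FPKM was 47.06, 26.61 and 74.99 in the controls and 36.08, 52.06 and 56.46 in the cKO libraries. The 3 controls thus spanned the whole range of the cKO libraries and went beyond it at both ends, and the mean was 49.6 ± 24.3 (SD, n = 3) in controls and 48.2 ± 10.7 (SD, n = 3) in cKO. The near-identical Lyz1 had 0.48 to 2.59 FPKM, with its lowest value in control replicate 2 and its highest in control replicate 3, as for Lyz2. Ctss, a lysosomal protease that processes antigen in myeloid cells, was 8.87, 5.10 and 12.20 in the controls and 6.06, 11.08 and 10.69 in the cKO libraries, again with the controls at both ends. Cd68, a lysosomal glycoprotein of macrophages, ranged from 2.69 to 7.10 FPKM, Mpeg1, a pore-forming protein, from 0.57 to 2.30, and Cybb, the membrane subunit of the phagocyte oxidase, from 0.05 to 0.24.

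Genes of class II antigen presentation were low. The invariant chain Cd74 ranged from 0.55 to 1.24 FPKM, and the class II chains H2-Aa and H2-Ab1 from 0.19 to 0.63 and from 0.35 to 0.76. Among the other myeloid genes, Aif1, the calcium-binding protein IBA1, ranged from 0.50 to 1.77. Pf4, a chemokine of platelets that tissue macrophages also transcribe, was 3.95, 2.86 and 6.41 in the controls and 4.09, 6.46 and 3.81 in the cKO libraries, with overlapping groups.

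The osteoclast enzymes were among the 3 highest markers, and Ctsk varied least of the markers above 0 in all libraries. Ctsk was 308.85, 264.75 and 300.73 FPKM in the controls and 260.83, 282.69 and 280.47 in the cKO libraries, and its mean was above 98.2% of the rows. Its highest library was only 1.18 times its lowest, against 2.39 times for its neighbour Ctss. Acp5, which encodes tartrate-resistant acid phosphatase, was 19.08, 18.02 and 22.99 in the controls and 21.19, 26.98 and 25.12 in the cKO libraries, with control replicate 2 again the lowest. The groups overlapped for both enzymes. Which cells in the cultures made the RNA of Ctsk and Acp5 was not tested. In limma, the log2 fold change was 0.27 for Acp5 with a standard error of 0.12 (adjusted p = 0.391) and -0.08 for Ctsk with a standard error of 0.08 (adjusted p = 0.663). An antisense transcript overlaps exons of Acp5 in GENCODE, and the counting is not stated to use strand.

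Other osteoclast genes ranged from near 0 to moderate levels. Of the 15 further osteoclast genes listed, 14 had a row, and 7 passed the filter. Dcstamp and Ocstamp, needed for fusion, reached at most 0.07 and 0.22 FPKM, Tnfrsf11a, which encodes RANK, at most 0.13, and Oscar and Siglec15, receptors of the lineage, at most 0.10 and 0.12. Atp6v0d2, a proton pump subunit with a part in fusion, was higher, at 0.53, 0.70 and 0.30 in the controls and 0.63, 0.79 and 1.09 in the cKO libraries. Nfatc1, the transcription factor that RANKL induces, was 7.40 to 9.28 and the integrin gene Itgb3 7.61 to 10.46, and neither is particular to osteoclasts. Tcirg1, another proton pump subunit, was 18.62 to 22.36 and Clcn7, a chloride exchanger, 14.01 to 17.50. Of the 7 tested genes of this list, 0 had an adjusted p-value under 0.05.

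Library by library, control replicate 2 was the lowest of the 6 for 24 of the 38 markers, and it was the highest for 0. The filter on low values was at least 1 FPKM in at least 3 libraries, and 11590 rows passed it. Over these rows, control replicate 2 was the lowest for 15.2% and the highest for 24.5%. Of the 38 markers, 14 lay under that filter. For the 24 that passed, control replicate 2 was the lowest for 19 (79.2%) and the highest for 0. By role over all 38, it was lowest for 3 of 3 C1q chains, 4 of 5 lysosomal genes and 5 of 8 macrophage receptors. It was also lowest for 4 of 6 Fc receptors and adaptors, 2 of 3 class II genes and 2 of 6 genes common to leukocytes. Each marker was also divided by its own mean over the libraries. The median of this ratio over the 38 markers was 0.897, 0.546 and 1.22 in the controls and 0.805, 1.14 and 1.29 in the cKO libraries. Over all rows tested, the same median lay between 0.977 and 1.01 in each library.

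**Figure D2:**
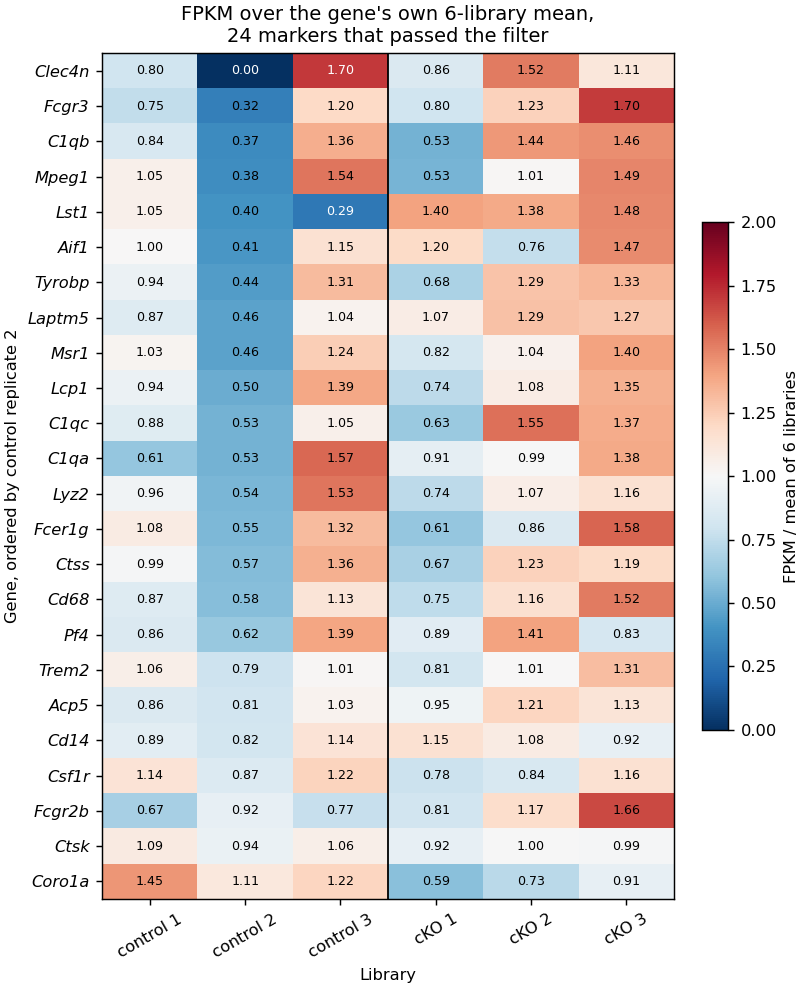
FPKM of the 24 markers that passed the filter (rows, ordered by control replicate 2) divided by each gene's own mean over the 6 libraries (columns), with blue below and red above 1 and the ratio printed in each cell. Control replicate 2 has the lowest ratio in 19 of the 24 rows, but not in those of Lst1, Csf1r, Fcgr2b, Ctsk and Coro1a.

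The difference within the control group was larger than that between the groups. The summed FPKM of the 36 markers without Ctsk and Acp5 was 109.51, 64.58 and 156.77 in the controls and 92.07, 133.37 and 145.38 in the cKO libraries. The group means were 110 ± 46.1 (SD, n = 3) for control and 124 ± 28.0 (SD, n = 3) for cKO. Control replicate 3 exceeded control replicate 2 by more than 1.5 times in 15 of the 23 tested markers with values above 0 in both, with a median ratio of 2.25, and in 3.73% of the rows tested. The second lowest library was often cKO replicate 1, and both were the 2 lowest for 16 of 38 markers and for 7.95% of the rows tested. Of these 38 markers, 14 were not among the rows tested.

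Neutrophil genes, which are no members of the marker set, dipped in the same library as a sum. By gene, control replicate 2 was the lowest library for 6 of the 12 listed (50%), against 15.2% of all rows tested. Only 4 of these 12 were among the rows tested, so the 2 shares are not over like sets. S100a8 and S100a9, the calprotectin subunits stored in neutrophils, were the highest of the 12 genes on that list. S100a8 was 9.61, 1.17 and 13.30 FPKM in the controls and 7.62, 10.95 and 7.99 in the cKO libraries. S100a9 was 7.38, 1.5 and 7.85 in the controls and 6.27, 6.96 and 5.33 in the cKO libraries. The whole list summed to 3.55 in control replicate 2 and to between 18.63 and 26.51 in the other libraries, and of the 4 tested, 0 reached an adjusted p-value below 0.05. The summed preosteoblast list differed by 1.07 times between its highest and lowest library, but Col1a1 and Col1a2 make up most of that sum, and single genes of it differed more, such as Ibsp by 4.73 times and Bglap by 7.18 times. As a sum, the further list of 38 macrophage genes did not dip in control replicate 2. Its sum was highest there, at 2588.51, against 2323.15 to 2569.95 in the other libraries, and most of it came from genes that many cells use, such as the lysosomal proteases Ctsd and Ctsb. By gene, part of the list did dip: control replicate 2 was the lowest library for 16 of these 38 (42.1%), against 15.2% of all rows tested. Only 13 of these 38 were among the rows tested. The part of neutrophil RNA in the levels of Lyz2 and the other shared genes was not tested.

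**Figure D3:**
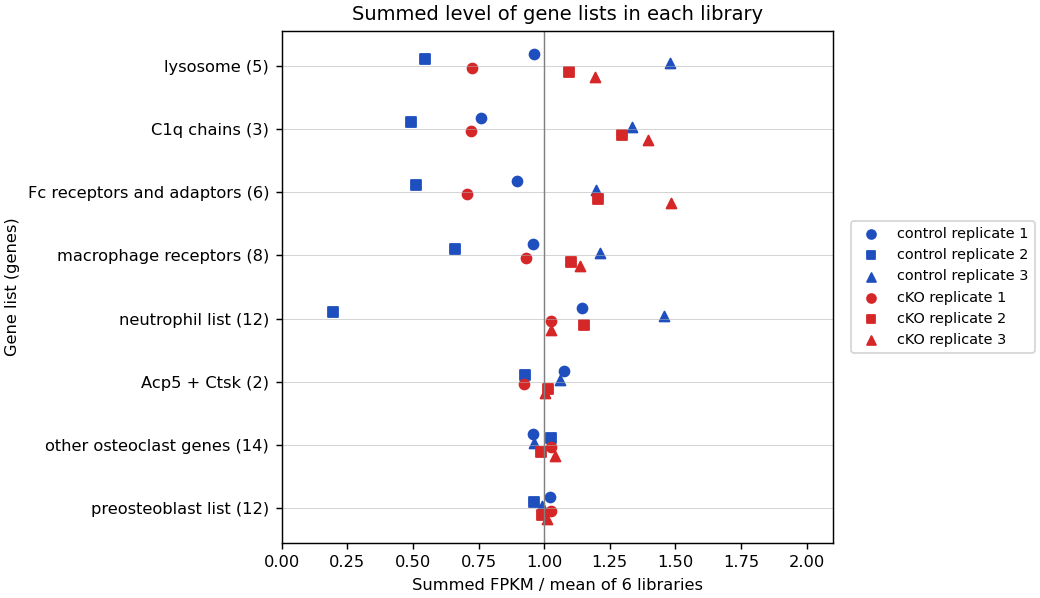
Summed FPKM of 8 gene lists (vertical axis, number of genes in brackets) in each library, divided by the mean of the 6 libraries; control libraries in blue, cKO libraries in red, replicates 1, 2 and 3 as circles, squares and triangles. Control replicate 2 (blue square) is leftmost for the 4 groups of macrophage markers and the neutrophil list, whereas the osteoclast and preosteoblast sums, each led by a few highly expressed genes, lie close to 1.

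The main ligand that stromal cells supply to macrophages was far more abundant than its receptor gene. Csf1, the ligand of CSF1R, was 122.14 to 132.25 FPKM in controls and 117.43 to 129.92 in cKO, against 0.84 to 1.31 for Csf1r over all 6 libraries. The second ligand of that receptor, Il34, was 5.74, 5.59 and 5.08 in the controls and 4.86, 3.86 and 4.83 in the cKO libraries, with no overlap. Lgals3, which encodes the lectin galectin-3 made by both macrophages and stromal cells, was 45.86, 38.79 and 41.95 in the controls and 50.08, 86.82 and 79.02 in the cKO libraries, also without overlap. Of the other macrophage genes listed, 13 of 38 were tested and 0 passed the adjusted threshold. Of these 13, 9 had a log2 fold change above 0, with a median of 0.14, against 44.2% and a median of -0.02 over all rows tested. None of the erythroid (4 rows found) or mast cell genes (2 rows found) reached the filter. Of the 10 tested genes on this list of 12 ligands and mediators, 0 had an adjusted p-value under 0.05, and at an unadjusted p-value under 0.05 1 was higher (Lgals3) and 1 lower (Il34).

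The comparison of the genotypes was then made over the whole table. Values were taken as log2(FPKM + 1), a scale that understates changes of low genes, and 24 of the 38 markers were among the 11590 rows tested with limma. Of these 24, 0 passed the filter through 1 group alone. With Benjamini-Hochberg adjustment, 0 markers and 0 rows (0%) had an adjusted p-value under 0.05, and the smallest adjusted p-value was 0.312 for both. At an unadjusted p-value under 0.05 there were 1521 rows in all. Of the 24 markers, 2 were higher at that level (Lst1 and Laptm5), which is 8.33% of them against 5.37% of all rows, and 1 was lower (Coro1a), 4.17% against 7.76%.

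The direction of the small differences depended on which libraries were used, control replicate 2 above all. With all 6 libraries, 21 of the 24 markers had a log2 fold change above 0, against 44.2% of all rows, and the median was 0.21 against -0.02 over all rows. Without control replicate 2, 10 of 24 were above 0 (41.7%, against 44.8% of rows), and the median was -0.02, as it was over all rows. The log2 fold change moved down for 23 of the 24 markers when that library was left out, and 11 changed from above to below 0. Control replicate 2 was the lowest library for 19 of the 24, so for these the move down was fixed in advance. For Lyz2 it was 0.05 (standard error 0.36) with all libraries and -0.32 without control replicate 2, for Ctss 0.11 (standard error 0.32) and -0.19, for Tyrobp 0.29 (standard error 0.35) and -0.06, and for Pf4 0.12 (standard error 0.26) and -0.09. The 95% interval of Lyz2 with all libraries ran from -0.79 to 0.90. Without cKO replicate 2, 17 of 23 markers were above 0 (73.9%, against 40.4% of rows). Without cKO replicate 3, 14 of 22 were (63.6%, against 46.1% of rows). Lyz2 and Ctss also lay below 0 in each of these settings. Over all 38 markers, 30 had a higher mean in cKO with all libraries and 20 without control replicate 2. No count of means was made over all rows. In the limma fit of all 6 libraries without a filter, 31 of the 38 markers had a log2 fold change above 0 (81.6%), against 48% of 16990 rows.

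**Figure D4:**
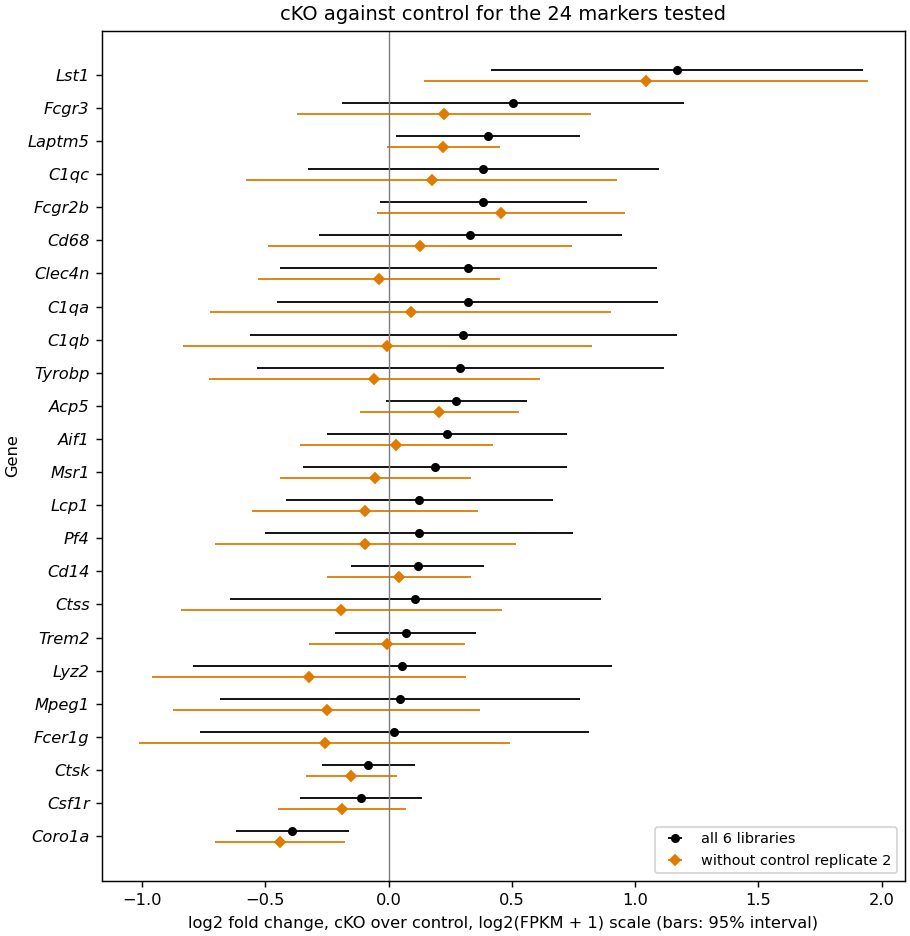
Log2 fold change of cKO over control on the log2(FPKM + 1) scale (horizontal axis) for the 24 tested markers, with all 6 libraries in black and without control replicate 2 in orange; bars are 95% intervals from limma. Without that library 23 of the 24 points move to the left and the median falls to -0.02, while Lst1 stays to the right of 0 and Coro1a to the left. For the 19 markers lowest in that library, the move to the left was fixed in advance.

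The ranges of the genotypes were separate in 6 of the 38 markers. Lst1, Laptm5, Fcgr1 and Cd3g were higher in each cKO library, 4 of 38 or 10.5%, where 6.09% of the 16990 rows with a value above 0 did so. Coro1a and Cx3cr1 were lower in each, 2 of 38 or 5.26%, where 8.93% of the rows did so. These shares lie close to the background, so the members are described one by one.

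Lst1, a small immunoregulatory protein of leukocytes, had the widest difference. GENCODE release M21 places it at chr17:35185095-35188439 (GRCm38, minus strand). Its FPKM was 5.05, 1.92 and 1.37 in the controls and 6.74, 6.61 and 7.10 in the cKO libraries. The mean was 2.78 ± 1.99 (SD, n = 3) in controls and 6.82 ± 0.25 (SD, n = 3) in cKO. In limma this was a log2 fold change of 1.17 with a standard error of 0.32 and a 95% interval from 0.42 to 1.92 (adjusted p = 0.312). Its order over libraries was unlike that of the macrophage genes: control replicate 3, where Lyz2 and C1qa were highest, had the lowest Lst1, 0.29 times its own mean. Aif1, which lies 9027 bases from Lst1, was 1.21, 0.50 and 1.39 in the controls and 1.44, 0.92 and 1.77 in the cKO libraries, with overlapping groups. Without control replicate 2 the log2 fold change of Lst1 was 1.05 (adjusted p = 0.616), and with any other library left out it lay between 0.89 and 1.57.

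Laptm5 was 1.43, 0.76 and 1.71 FPKM in the controls and 1.77, 2.13 and 2.09 in the cKO libraries. The highest control was just below the lowest cKO library, and the limma log2 fold change, 0.40 with a standard error of 0.16 (adjusted p = 0.362), was 0.22 without control replicate 2. Coro1a was 1.58, 1.21 and 1.33 in the controls and 0.64, 0.80 and 1 in the cKO libraries. Its log2 fold change was -0.39 with a standard error of 0.10 (adjusted p = 0.312), and without control replicate 2 it was -0.44. Exons of Coro1a overlap those of Bola2 on the opposite strand, and Bola2 had 145.51 to 169.08 FPKM, far above the level of Coro1a. Whether reads of Bola2 entered the Coro1a value was not tested.

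The other 3 of these 6 genes lay below the filter and were not tested with the rest. Fcgr1, the high-affinity receptor for immunoglobulin G, was 0.13, 0.02 and 0.16 FPKM in the controls and 0.36, 0.20 and 0.20 in the cKO libraries. Cx3cr1 was 0.24, 0.13 and 0.07 in the controls and 0, 0.02 and 0.05 in the cKO libraries. Cd3g, a chain of the T cell receptor complex, was listed at 0 in all 3 controls and at 0.07 in each cKO library. In the table, 35 rows were at 0 in all controls and above 0 in all cKO libraries, and 15 rows showed the reverse. Among 703 rows listed at 0 in 5 libraries, the remaining value times the length of the longest transcript in kilobases had a median of 0.0752 (quartiles 0.0600 and 0.119). For Cd3g the same product was 0.178, above the upper quartile, and with its shortest transcript in place of the longest it was 0.0288. How many reads its 0.07 stands for is unknown. Its mean over the 6 libraries was above only 11.1% of the rows.

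**Figure D5:**
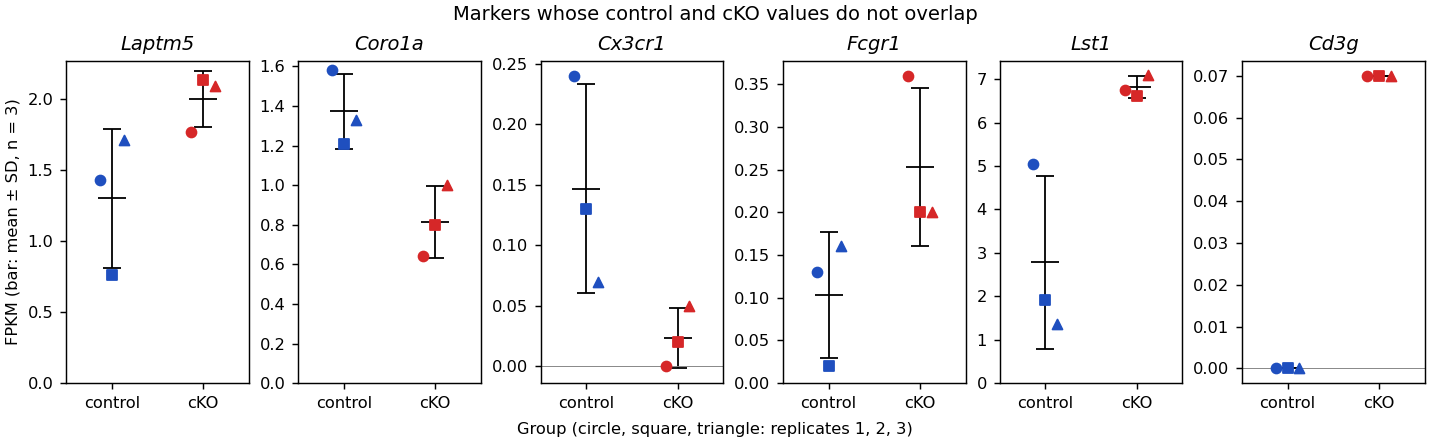
FPKM of the 6 markers whose groups do not overlap (1 panel each, each with its own vertical axis), with replicates 1, 2 and 3 as circles, squares and triangles and black bars for the mean ± SD (n = 3). Lst1 has 3 cKO libraries between 6.61 and 7.10 and controls spread from 1.37 to 5.05, whereas Fcgr1, Cx3cr1 and Cd3g lie below 0.4 FPKM throughout.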

How the data were processed

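Poly(A) RNA of 6 libraries, 3 control and 3 cKO, was sequenced as paired-end reads. Per the labels and the study's methods, the authors mapped reads with HISAT2 (build GRCm38), and the deposited table gives FPKM per gene symbol and library, although its name speaks of raw counts. The FPKM program and the annotation release are not given in the sources used here, and the DESeq normalization they name is not carried by FPKM.

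No count-based test was run. log2(FPKM + 1) was fitted with limma 3.58.1 in R 4.3.3 (lmFit, eBayes, two-sided, p-values adjusted by Benjamini-Hochberg) on 11590 of 17001 rows, those with at least 1 FPKM in at least 3 libraries; markers were read from this fit. The fit was tested on simulated data with known changes. Sums, ratios to a gene's mean and ranks of libraries are descriptions without a test. Gene positions and exon overlaps came from GENCODE M21, and upstream sequences from RefSeq.

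The markers, gene lists, filter and pseudocount were chosen with earlier results of these data known. Values in every library are given for markers with a mean of at least 5 FPKM, an unadjusted p-value under 0.05 or groups that do not overlap, for Ptprc, Csf1r, Adgre1, Spi1, Acp5, Ctsk, Pf4 and Cd3g, and, chosen after their values were seen, for the C1q chains and Aif1. Of other lists, at most 4 genes with the highest mean were to be named. The osteoclast genes other than Tcirg1 and Clcn7, the preosteoblast genes other than Col1a1 and Col1a2, and Il34 were added after their values were seen. The same holds for Lyz1, Bola2 and Hmgxb3. Alternatives were pseudocount, filter, scaling, variance trend, replicate block and leaving out each library. Results for some genes are not reported here.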

Additional observations from a re-analysis of the deposited data

How the results depend on the processing

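Alternatives were a pseudocount of 0.1 or 0.25, 2 other filters, 2 scalings, a variance trend, the replicate number as a block and each library left out; each changed 1 choice at a time. At an adjusted p-value below 0.05, 0 rows were called in each setting with all 6 libraries, and 0 to 334 with 1 library left out, the 334 without cKO replicate 1; none of the 38 markers was among them in any setting (0 of the 24 tested without cKO replicate 1). Markers with an unadjusted p-value under 0.05 numbered 3 with all libraries, 6 with the replicate block and 2 to 7 with 1 library left out, the 7 again without cKO replicate 1. Over all rows, the same counts were 1521 of 11590 with all libraries and 1465 of 11590 with the replicate block. With 1 library left out they ran from 852 (without cKO replicate 3) to 2459 of 11522 (without cKO replicate 1).

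The median log2 fold change of the markers was between -0.022 and 0.37 with 1 library left out. It turned negative only without control replicate 2, and it was highest without control replicate 3. The same pair of libraries gave the lowest and highest values for Lyz2 (-0.32 and 0.41), Ctss (-0.19 and 0.36), Tyrobp (-0.057 and 0.57) and Pf4 (-0.094 and 0.38). Without cKO replicate 2, Lyz2, Ctss and Pf4 were also below 0, as were Lyz2 and Ctss without cKO replicate 3. Lst1, Laptm5, Acp5, Coro1a, Csf1r and Ctsk kept their direction in each setting in which they were tested. The log2 ratio of the summed FPKM of all 38 markers was 0.00321, and 0.18 without Ctsk. With 1 library left out it lay between -0.12 (without control replicate 2) and 0.11 (without control replicate 3), with both signs, and it was not tested. Same-numbered libraries are not stated to share an animal or a day. After the group mean was removed, they correlated at 0.03, -0.17 and 0.21 for replicates 1, 2 and 3, so the numbers were not taken as pairs, and not every library correlated best with its own number. FPKM hides depth, so the counting error of the 15 markers with a mean under 1 is unknown, and with 3 libraries a group the intervals span both directions for most markers.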

Other observations

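Genes listed for other blood and vessel lineages did not all share the pattern of the macrophage markers. Ppbp, a platelet chemokine encoded beside Pf4, was 0.98, 7.61 and 2.07 FPKM in the controls and 3.31, 0.60 and 0.93 in the cKO libraries, so it was highest in the library in which Pf4 was lowest. Of the platelet receptor genes, Gp1bb was 2.73 to 4.79 and Itga2b 0.83 to 1.34, both highest in control replicate 2, while Gp9 and Gp6 were each listed at 0 in 5 libraries and at no more than 0.18 in control replicate 3. The 5 rows found for B cells summed to 0.01 to 0.41 FPKM in a library. Of the T and NK cell list, Cd3d, Cd2 and Nkg7 were above 0 in 1 library each, at no more than 0.10. Zap70, a kinase of T cell receptor signaling, was 0.13 to 0.35. Lck, another such kinase, was 0.59, 0.96 and 1.03 in controls and 1.07, 1.36 and 1.47 in cKO, without overlap (log2 fold change 0.31, adjusted p = 0.342). Thy1, which mesenchymal cells also make, was 179.87 to 223.18. Of the 8 endothelial genes, which summed to 2.2, 2.42 and 4.72 in controls and 2.11, 4.12 and 4.07 in cKO, Cdh5 alone was tested (log2 fold change -0.12, adjusted p = 0.741 from limma).

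Mmp9, a gelatinase of osteoclasts and neutrophils, was 0.57, 0.71 and 1.15 FPKM in controls and 1.87, 1.55 and 1.83 in cKO (log2 fold change 0.61, standard error 0.12, adjusted p = 0.312). The groups did not overlap. All genes in this section other than Thy1, Lck, Zap70, Ppbp, Gp1bb, Itga2b and Cdh5 were chosen after their values were seen.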
